A study of Mus musculus with 6 samples.

Results

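The genes described are Igf1, its receptor gene Igf1r and 6 genes of the insulin-like growth factor (IGF) binding protein family, Igfbp2 to Igfbp7. They were taken by symbol, with the brightest probe set that carries a single gene symbol, and each of the 8 had exactly 1 such probe set among the 19938 genes that could be tested. Levels were followed in embryoid bodies (EBs), floating aggregates of differentiating cells, made from R1 cells, an established mouse embryonic stem (ES) cell line. Cells were seeded at 35000 per ml in medium lacking Lif, the cytokine that holds mouse ES cells undifferentiated, and 2 μM retinoic acid (RA) was given once the EBs were 4 days old. Day 0 EBs were taken before RA, day 3 and day 4 EBs after 3 or 4 days in it, and RNA of 2 samples per day went to 1-colour Affymetrix Mouse Gene 1.0 ST arrays. All groups share the cell line, the seeding and the medium without Lif. Day 3 and day 4 EBs were also 3 or 4 days older than day 0 EBs, and EBs of those ages without RA were not analysed here, so the action of RA and that of age cannot be told apart.

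IGF1 is a secreted growth factor related to insulin. It acts through IGF1R, a receptor tyrosine kinase of the cell surface that signals by way of the PI3K and Akt kinases and the Ras and ERK kinases to promote growth and survival. The binding proteins are secreted and hold IGFs outside the cell, which can keep the ligand from its receptor, store it in the matrix or carry it, until proteases cut the binding protein and free the ligand. IGFBP2 to IGFBP5 bind IGF1 and IGF2 strongly, IGFBP6 prefers IGF2, and IGFBP7 binds IGFs only weakly. IGF1 and several binding proteins are typically made by mesenchymal cells and act on their neighbours.

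Levels are log2 intensities after Robust Multichip Average (RMA), and 1 unit is a doubling on that scale. The 6 array medians lay between 6.69 and 6.85, and the 2 arrays of each day correlated at 0.999 (Pearson's r over all genes tested, and genes are not independent of each other). The labels call the cells embryonic stem cells, and of the ES cell genes Pou5f1 went from a mean of 10.24 at day 0 to 6.16 at day 3, and Nanog from 10.26 to 7.81. Zfp42, a marker of naive ES cells, went from 5.86 to 5.23, with both means below the 6 that the study's limits for an undetectable gene use. All 8 ES cell markers tested were lower at day 3 than at day 0 (limma, adjusted p of 0.05 or below), beside 28.1% of all genes. At day 4, 7 were lower, beside 25.6% of all genes, and Klf4 did not pass (log2 change -0.01, adjusted p = 0.944). Whether the 2 arrays of a day stand for separate cultures is not in the labels, so the p-values rest on a spread between arrays that may be technical. In whole EBs, fewer cells of a type and less RNA per cell cannot be told apart.

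The array files name no genome build. For orientation, the 250 bases upstream of a RefSeq transcript start are shown for the 5 genes whose window lies at the outermost start of the gene, written 5′ to 3′ on the gene's strand, with coordinates of build GRCm38.p6. They include both members that fell against day 0 on at least 1 later day, Igfbp2 and Igf1r, and the 3 with the largest rises at day 4, Igfbp5, Igfbp7 and Igfbp6. Capitals mark matches, on either strand, to AGGTCA (the core hexamer of RA receptor sites), TATAAA (the TATA box), GGGCGG (the GC box) or CCAAT.
Igf1r (chr7:67952007-67952256, plus strand): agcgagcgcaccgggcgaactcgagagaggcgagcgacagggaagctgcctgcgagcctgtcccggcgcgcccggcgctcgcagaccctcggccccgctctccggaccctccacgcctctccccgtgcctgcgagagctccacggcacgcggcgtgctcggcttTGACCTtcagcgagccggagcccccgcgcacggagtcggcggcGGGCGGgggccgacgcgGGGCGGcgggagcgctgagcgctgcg
Igfbp2 (chr1:72824230-72824479, plus strand): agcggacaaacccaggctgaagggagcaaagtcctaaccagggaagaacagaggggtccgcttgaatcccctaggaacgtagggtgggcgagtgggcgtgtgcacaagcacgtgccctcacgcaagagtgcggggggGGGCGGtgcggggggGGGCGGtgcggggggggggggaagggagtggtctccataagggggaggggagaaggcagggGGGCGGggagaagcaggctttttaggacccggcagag
Igfbp5 (chr1:72874866-72875115, minus strand): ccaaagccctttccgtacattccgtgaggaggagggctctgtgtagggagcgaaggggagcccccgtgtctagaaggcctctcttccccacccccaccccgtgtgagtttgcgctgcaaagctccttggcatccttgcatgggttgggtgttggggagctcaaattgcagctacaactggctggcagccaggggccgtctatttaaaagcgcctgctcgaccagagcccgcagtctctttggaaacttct
Igfbp6 (chr15:102143936-102144185, plus strand): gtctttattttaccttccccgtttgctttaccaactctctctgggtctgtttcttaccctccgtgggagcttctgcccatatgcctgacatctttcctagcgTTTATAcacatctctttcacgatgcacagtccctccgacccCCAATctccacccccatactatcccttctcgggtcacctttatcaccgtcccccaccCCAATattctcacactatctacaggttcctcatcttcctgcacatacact
Igfbp7 (chr5:77408046-77408295, minus strand): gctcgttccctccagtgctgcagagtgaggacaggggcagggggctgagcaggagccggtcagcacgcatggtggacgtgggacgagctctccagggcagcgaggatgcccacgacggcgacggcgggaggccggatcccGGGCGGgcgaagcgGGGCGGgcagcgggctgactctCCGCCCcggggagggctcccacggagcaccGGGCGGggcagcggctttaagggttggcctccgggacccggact

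Matches to these motifs are a description of letters and not of binding. AGGTCA occurred in 14.0% of the 32851 RefSeq windows of this length and in the windows of 2 members, Igf1r, 86 bases before the start, and Igf1, 161 bases before it. The window of Igfbp5, the member with the largest rise, held none of the 4 motifs. Neither did the window of Igfbp3 or a further window of Igfbp2, which are not shown. GGGCGG, present in 32.7% of all windows, was found at 4 positions for Igfbp7, at 3 for Igfbp2 and at 2 for Igf1r. The Igfbp6 window held CCAAT at 2 positions, a motif in 33.9% of windows, and TATAAA on the opposite strand, a motif in 12.4% of windows. TATAAA was also found for Igfbp4, 28 bases before the start, and CCAAT for Igf1, 142 bases before it, in windows not shown. In base composition the Igf1r window, with 77.6% G and C and 42 CpG dinucleotides, and the Igfbp7 window, with 74.0% and 26, were far above the median window (52.4% and 6). The Igfbp6 window, with 49.6% and 7, was near it. Igfbp2 and Igfbp5 are direct neighbours on chromosome 1, and Igfbp3 neighbours Igfbp1 on chromosome 11.

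Every member passed the threshold against day 0 on both later days, though Igf1r did not when each array was centred on its median. At day 3, 7 of 8 were higher and 1, Igfbp2, was lower than at day 0 (adjusted p of 0.05 or below, limma), where 23.8% of all genes were higher and 28.1% lower. At day 4, 6 were higher than at day 0 and Igfbp2 and Igf1r were lower, beside 25.9% and 25.6% of all genes. From day 3 to day 4, Igfbp3, Igfbp4, Igfbp6 and Igfbp7 were higher, Igf1 and Igf1r lower, and Igfbp2 and Igfbp5 did not pass, beside 15.8% of all genes higher and 12.2% lower. With each array centred on its own median, the share of higher genes in that last comparison rose to 44.3% and that of lower genes fell to 6.93%, and among the members 5 were higher and 1 lower. The median log2 change of the 8 was 0.47 at day 3 and 1.13 at day 4 against day 0, and 0.29 from day 3 to day 4, where the medians of all genes were -0.05, -0.00 and 0.05. The comparisons with day 0 share its 2 arrays.

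**Figure D1:**
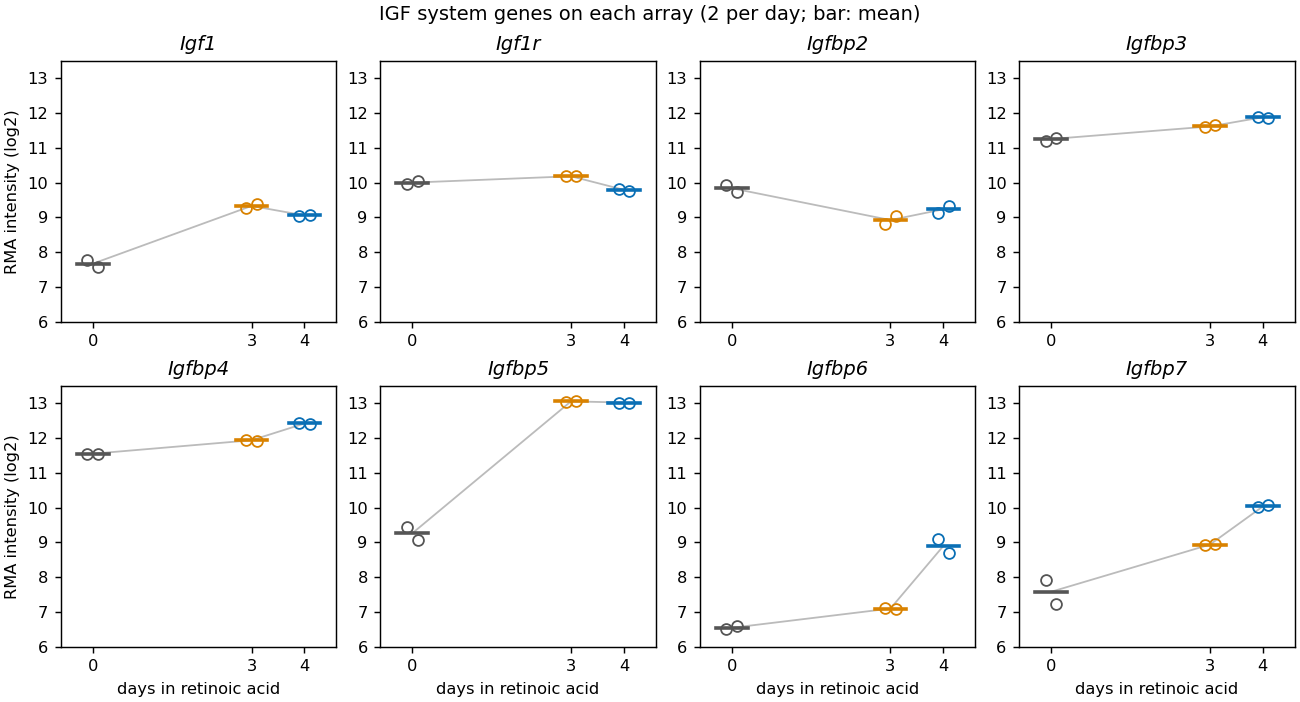
RMA intensity (log2) of the 8 genes on each array against days in RA. Circles are the 2 arrays of a day, bars their mean, and grey lines join the means. Igfbp5 reached 13.06 by day 3 and stood at 13.03 at day 4, whereas Igfbp6 and Igfbp7 had their highest levels at day 4.

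The ligand gene rose early. On the day 0 arrays Igf1 (probe set 10365559) measured 7.76 and 7.58, on those of day 3 9.28 and 9.39, and on those of day 4 9.04 and 9.08. All later arrays were above both day 0 arrays, and both day 4 arrays were below both of day 3. The rise was 1.66 log2 units at day 3 (SE 0.08, 3.17-fold, limma adjusted p = 2.39e-06) and 1.39 at day 4 (2.62-fold, adjusted p = 4.93e-06). From day 3 to day 4 Igf1 fell by 0.27 (adjusted p = 0.0354), a call that was lost without any single one of the 4 arrays of those days (adjusted p 0.0708 to 0.158), and with median centring, where the change was -0.14 (adjusted p = 0.155). Igf1os, which RefSeq places over the start of Igf1, stayed between 4.40 and 4.70 on the 6 arrays, and by the study's limits for an undetectable gene (mean below 6 and SD below 0.3) it was undetectable.

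The receptor gene moved least against day 0. Day 0 arrays gave 9.96 and 10.04 for Igf1r (probe set 10554094), day 3 arrays 10.18 and 10.19, and day 4 arrays 9.82 and 9.77. The days did not overlap, with day 3 highest and day 4 lowest. The largest of its differences was the fall by 0.39 from day 3 to day 4 (SE 0.06, limma adjusted p = 0.00311). The differences from day 0, 0.18 at day 3 (adjusted p = 0.0278) and -0.21 at day 4 (adjusted p = 0.0161), were small and were not called with median centring, which gave 0.16 (adjusted p = 0.0687) and -0.10 (adjusted p = 0.217). Each was also lost when certain arrays were left out. For day 3 these were day 0 replicate 1 (adjusted p = 0.131) and either day 3 array (0.0905 and 0.103), and for day 4 they were replicate 2 of day 0 (0.0877) and of day 4 (0.0815).

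Of the binding proteins, Igfbp5, whose product is a matrix-bound IGF carrier prominent in connective tissue, rose most. Its probe set (10355500) measured 9.44 and 9.08 at day 0, then 13.06 and 13.07 at day 3, and 13.03 on both arrays of day 4. The 4 later arrays lay within a narrow band far above day 0. The change was 3.80 at day 3 (SE 0.11, 13.9-fold, limma adjusted p = 3.03e-07) and 3.76 at day 4 (13.6-fold, adjusted p = 2.75e-07), and only 57 and 58 of the 19938 genes rose more. Between day 3 and day 4 the difference was -0.03 (95% interval -0.29 to 0.22, adjusted p = 0.839).

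Igfbp2, the neighbour of Igfbp5 and a binding protein of early embryonic and many fetal tissues, moved the other way. Its levels were 9.94 and 9.74 before RA, then 8.80 and 9.05 at day 3 and 9.13 and 9.34 at day 4 (probe set 10347277). Day 0 was highest, and both day 4 arrays were above both of day 3. The change from day 0 was -0.92 at day 3 (SE 0.11, limma adjusted p = 0.00035) and -0.61 at day 4 (adjusted p = 0.0029). The partial return of 0.31 between day 3 and day 4 missed the threshold (95% interval 0.04 to 0.58, adjusted p = 0.081) and passed it with median centring (0.44, adjusted p = 0.0118) and with a robust intensity trend (0.31, adjusted p = 0.0225).

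Of the 8 genes, Igfbp6 and Igfbp7 rose most between day 3 and day 4. Igfbp6 (probe set 10427125) was dim at 6.50 and 6.59 at day 0 and 7.10 and 7.09 at day 3, and stood at 9.10 and 8.70 at day 4. All days were separate, and day 4 was far above both others although its arrays were also the least alike. The change was 0.55 at day 3 (limma adjusted p = 0.00644) and 2.36 at day 4 against day 0 (5.12-fold, adjusted p = 3.6e-06), and 1.80 from day 3 to day 4 (3.49-fold, adjusted p = 0.000265), a rise exceeded by 6 of 19938 genes.

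Igfbp7, a secreted protein of the extracellular matrix and of vessel walls, measured 7.92 and 7.24 before RA, then 8.93 and 8.95 at day 3 and 10.01 and 10.06 at day 4 (probe set 10530841). Each day lay above the one before, with a wide gap only between the 2 day 0 arrays. It changed by 1.36 at day 3 (limma adjusted p = 0.000676) and 2.46 at day 4 against day 0 (5.49-fold, adjusted p = 2.69e-05), and by 1.10 from day 3 to day 4 (2.14-fold, adjusted p = 0.00643), exceeded by 54 genes. The choice of day 0 array moved these values. Against replicate 2 alone they were 1.70 and 2.80, and against replicate 1 alone 1.02 and 2.11, all past the threshold. Replicate 1 of day 0 also had the higher levels of Igf1, Igfbp2 and Igfbp5. Its summed marker level was the higher one for 5 of 7 cell type lists, among them smooth muscle (12.64 beside 12.37) and mesenchyme (11.86 beside 11.77), and the part of such cells in these differences was not tested.

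Igfbp3, which carries most IGF in blood, and Igfbp4, an inhibitor of IGF action that the protease PAPP-A cuts, rose stepwise. Igfbp3 (probe set 10384223) measured 11.21 and 11.30 at day 0, then 11.59 and 11.65 at day 3, then 11.89 and 11.88 at day 4. Igfbp4 (probe set 10381096) measured 11.56 and 11.55, then 11.96 and 11.92, then 12.43 and 12.42. For both genes the 3 days were separate and in the order of time. Against day 0, Igfbp3 rose by 0.36 at day 3 (limma adjusted p = 0.00123) and 0.63 at day 4 (adjusted p = 6.08e-05), and Igfbp4 by 0.39 (adjusted p = 0.000472) and 0.87 (adjusted p = 6.5e-06). From day 3 to day 4 the changes were 0.27 (adjusted p = 0.0139) and 0.48 (adjusted p = 0.00105), of which that of Igfbp3 was lost without replicate 1 of day 3 (adjusted p = 0.0855) or without either array of day 4 (0.0603 and 0.0587).

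**Figure D2:**
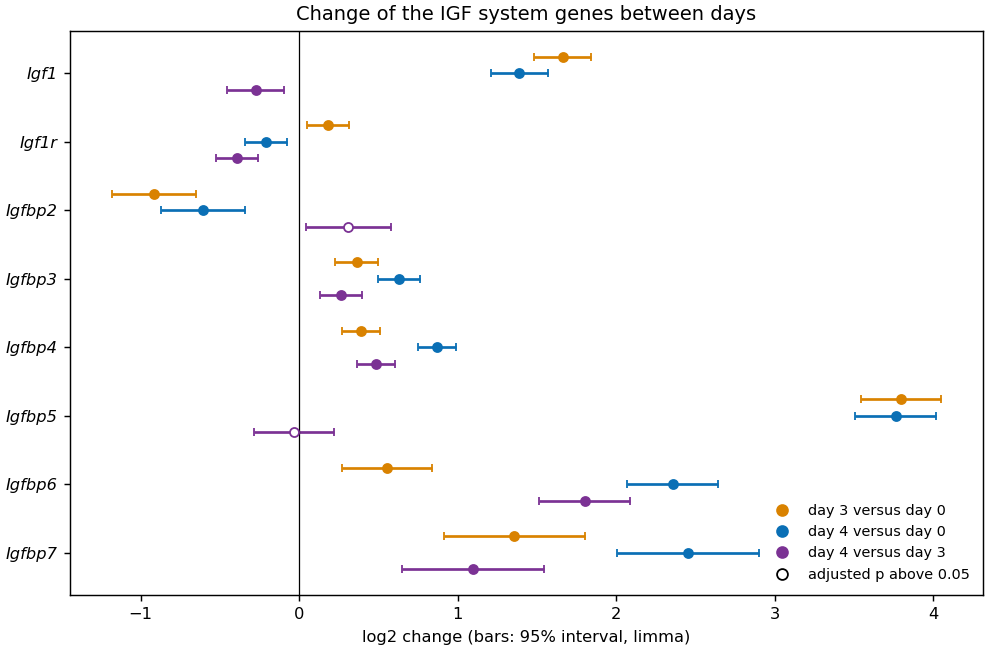
Log2 change of each gene in the 3 comparisons, with 95% intervals from limma; open circles had an adjusted p above 0.05. Igfbp5 stands apart at 3.80 and 3.76 against day 0, and Igfbp6 has the largest change from day 3 to day 4, 1.80.

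Set among all genes, the members fell at different places in the range. Against day 0 at day 3, 406 genes rose more than Igf1 and 608 more than Igfbp7, while 4842 rose more than Igf1r. Igfbp2 was near the other end, with 955 genes changing more negatively. At day 4, 191 genes rose more than Igfbp7 and 221 more than Igfbp6. The median absolute log2 change of the 8 was 0.74 at day 3 and 1.13 at day 4 against day 0, and 0.35 between day 3 and day 4, where the medians over all genes were 0.21, 0.21 and 0.13.

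**Figure D3:**
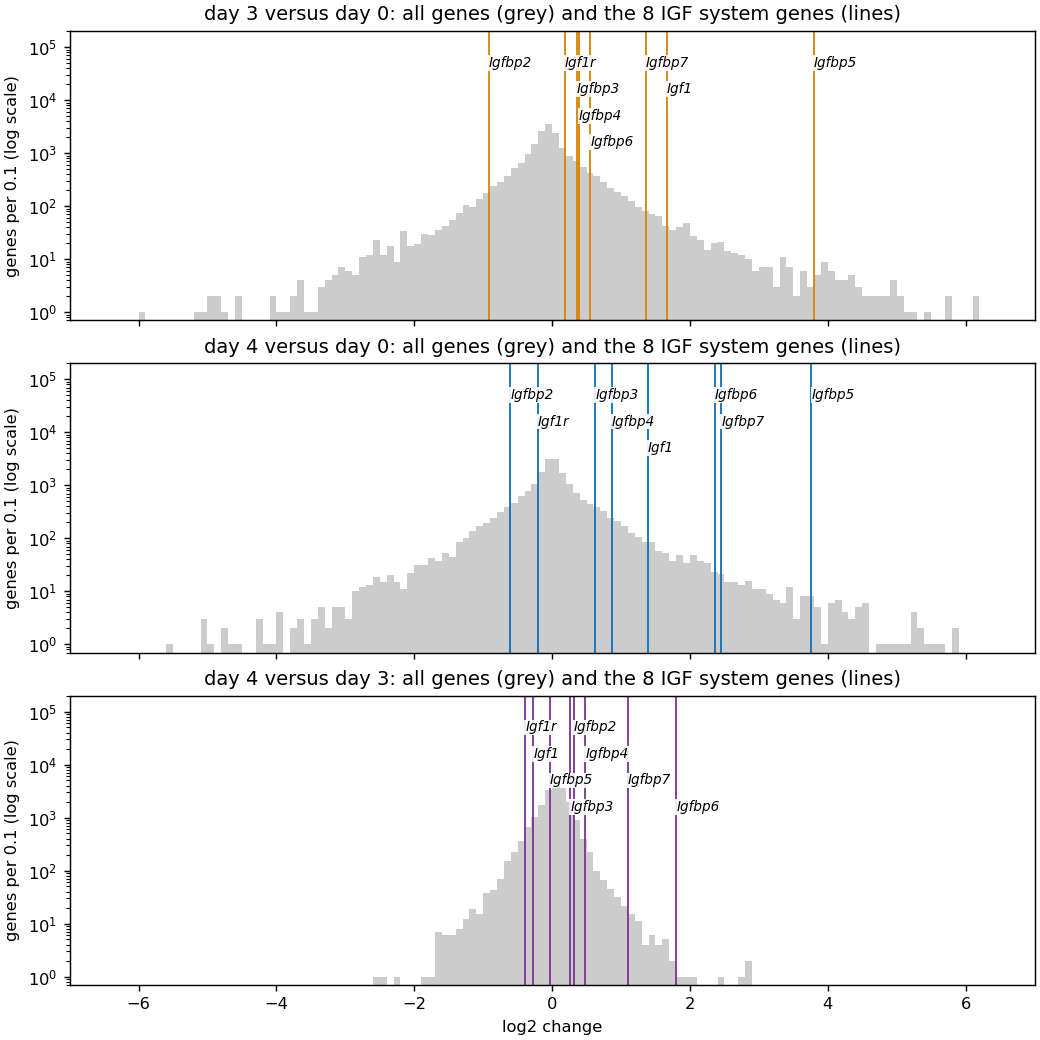
Number of genes per 0.1 of log2 change (grey, log axis) in each comparison, with the 8 genes as lines. Igfbp5 lies far in the upper tail against day 0, Igfbp6 in that of day 4 against day 3, and Igf1r close to the middle against day 0.

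For each member, the 3 genes with the most similar profile were sought among 17066 genes by the root mean square difference over the 6 arrays, after the day 0 mean of each gene was set to 0. Predicted genes, clone names, olfactory and vomeronasal receptor genes and small RNAs were left out. The nearest to Igf1 were Zbtb20 (difference 0.04), Hoxd3 (0.06) and Fzd8 (0.06), and 114 genes lay within 0.2. Nearest to Igfbp5 were Slc16a12 (0.08) and the transcription factor genes Tbx5 (0.13) and Foxp2 (0.14), with 6 genes within 0.2. Igfbp7 was closest to Akr1c14 (0.18), Timp3 (0.19), an inhibitor of matrix proteases, and Iigp1 (0.20), with 3 genes within that distance, and Igfbp6 to C1qtnf7 (0.21), Kank4 (0.26) and Calb1 (0.26), with 0. The other members changed less than 2-fold against day 0, and more genes lay within 0.2 of each. The difference was not scaled to the size of change, so flat genes can be among them. Spread between arrays also adds to it, as with the day 0 arrays of Igfbp7 (7.92 and 7.24). The counts thus do not measure how rare a profile was. Within 0.2 of Igf1r lay 3491 genes, led by Cwf19l2, Rab3gap2 and Tbc1d32, and within 0.2 of Igfbp3 lay 1555, led by Tmem59, Fibp and Pld3. For Igfbp4 there were 759, led by Kcnmb4, Irak1bp1 and Bloc1s1, and for Igfbp2 521, led by Atox1, Fkbp11 and Clic5.

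Other genes of IGF and insulin signalling moved in both directions. Of 62 listed, 52 were measured by a probe set with a single symbol, and 10 were not analysed here. At day 3, 21 were higher and 18 lower than at day 0, at day 4 19 and 17, and from day 3 to day 4 15 and 14. The shares among all genes were 23.8% higher and 28.1% lower, 25.9% and 25.6%, and 15.8% and 12.2%. With median centring the split at day 4 against day 0 was 26 higher and 15 lower, and that from day 3 to day 4 was 25 and 10. The last count with the deposited scaling, 29 in all, was 18 without replicate 1 of day 3. The median log2 change of the 52 was 0.00 at day 3, 0.08 at day 4 and 0.05 between them.

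Among ligands and receptors, the growth hormone receptor gene Ghr, which acts upstream of Igf1 in many tissues, rose from 9.23 and 9.19 at day 0 to 10.91 and 10.97 at day 3 and 11.32 and 11.22 at day 4. The days were separate, and the changes from day 0 were 1.73 (limma adjusted p = 6.71e-07) and 2.06 (adjusted p = 2.89e-07). Igf2, the other IGF ligand, went from a mean of 13.12 at day 0 to 13.51 and 13.54, changes of 0.39 (adjusted p = 0.000492) and 0.42 (adjusted p = 0.000315), and its difference between day 3 and day 4, 0.03, did not pass (adjusted p = 0.726). Igf2r, which takes IGF2 into the cell for degradation, rose by 0.34 at day 3 (adjusted p = 0.00122), and its day 4 difference from day 0 was -0.09 (adjusted p = 0.204). Like Igf1r, it fell between day 3 and day 4, by 0.44 (adjusted p = 0.00185). The insulin gene Ins2, undetectable by the study's limits with means from 5.83 to 5.98, passed in none of the 3 comparisons, and with median centring it passed at day 3 against day 0 (-0.17, adjusted p = 0.0378) and from day 3 to day 4 (0.20, adjusted p = 0.0226). Igfbp1, the neighbour of Igfbp3 and a binding protein best known from liver, ranged from 5.71 to 5.88, was also undetectable and passed in none (adjusted p 0.918, 0.235 and 0.322).

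Of the 5 proteases of the binding proteins and their inhibitors, 3 were higher and 2 lower at each later day than at day 0. The shares of all genes were 23.8% higher and 28.1% lower at day 3, and 25.9% and 25.6% at day 4. The day 3 call of Pappa2 (log2 change 0.22) was lost with the mean of its probe sets (0.10, limma adjusted p = 0.296) or the dimmest one (0.09, 0.502), and without replicate 1 or 2 of day 0 (adjusted p 0.0995 and 0.0966) or replicate 1 of day 3 (0.14, 0.176). Pappa, whose product PAPP-A cuts IGFBP4, rose 2-fold by day 3 (limma adjusted p = 5.79e-06) and was 0.58 above day 0 at day 4 (adjusted p = 7.72e-05). Both genes were dim. Means at days 0, 3 and 4 were 5.83, 6.83 and 6.41 for Pappa and 5.21, 5.43 and 6.18 for Pappa2. Stc1, of the stanniocalcin family that inhibits PAPP-A, rose by 0.85 at day 3 (adjusted p = 0.000127) and 1.65 at day 4 (adjusted p = 3.94e-06), and from day 3 to day 4 it gained 0.80 (adjusted p = 0.00116) while Pappa fell by 0.42 (adjusted p = 0.00239). Stc2, of the same family, fell by 0.72 at day 3 (adjusted p = 9.23e-05) and by 0.33 at day 4 (adjusted p = 0.00466) against day 0. Htra1, a secreted protease that can cut IGFBP5, fell by 1.58 at day 3 (adjusted p = 1.03e-06) and by 1.28 at day 4 (adjusted p = 2.27e-06). Its means were 7.30, 5.72 and 6.02 at days 0, 3 and 4.

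Downstream of the receptor, Gab1, a docking adaptor, rose by 1.19 at day 3 and 1.52 at day 4 against day 0. The PI3K regulatory subunit genes Pik3r1 and Pik3r3 rose by 1.18 each at day 3, and at day 4 were 0.92 and 0.65 above day 0. The catalytic subunit gene Pik3cb fell by 1.12 at day 3 and by 1.37 at day 4. Foxo4, a transcription factor that Akt restrains, fell by 1.56 and by 1.62, while Foxo1 rose by 0.43 and 0.53 and Foxo3 by 0.35 and 0.28. The kinase gene Braf and the mRNA-binding protein gene Igf2bp1 fell by 1.29 and by 1.33 at day 4. All of these passed in limma. The adaptor gene Irs4 did not pass at day 3 (log2 change 0.02, adjusted p = 0.915). By group, 10 of 19 genes of PI3K, Akt and mTOR were higher and 4 lower at day 3, and 8 were higher and 7 lower at day 4. Of 13 adaptor and feedback genes, 4 were higher and 6 lower at day 3, and 5 were higher and 3 lower at day 4. Over all genes, 23.8% were higher and 28.1% lower at day 3, and 25.9% and 25.6% at day 4. From day 3 to day 4 none of the 52 changed 2-fold.

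**Figure D4:**
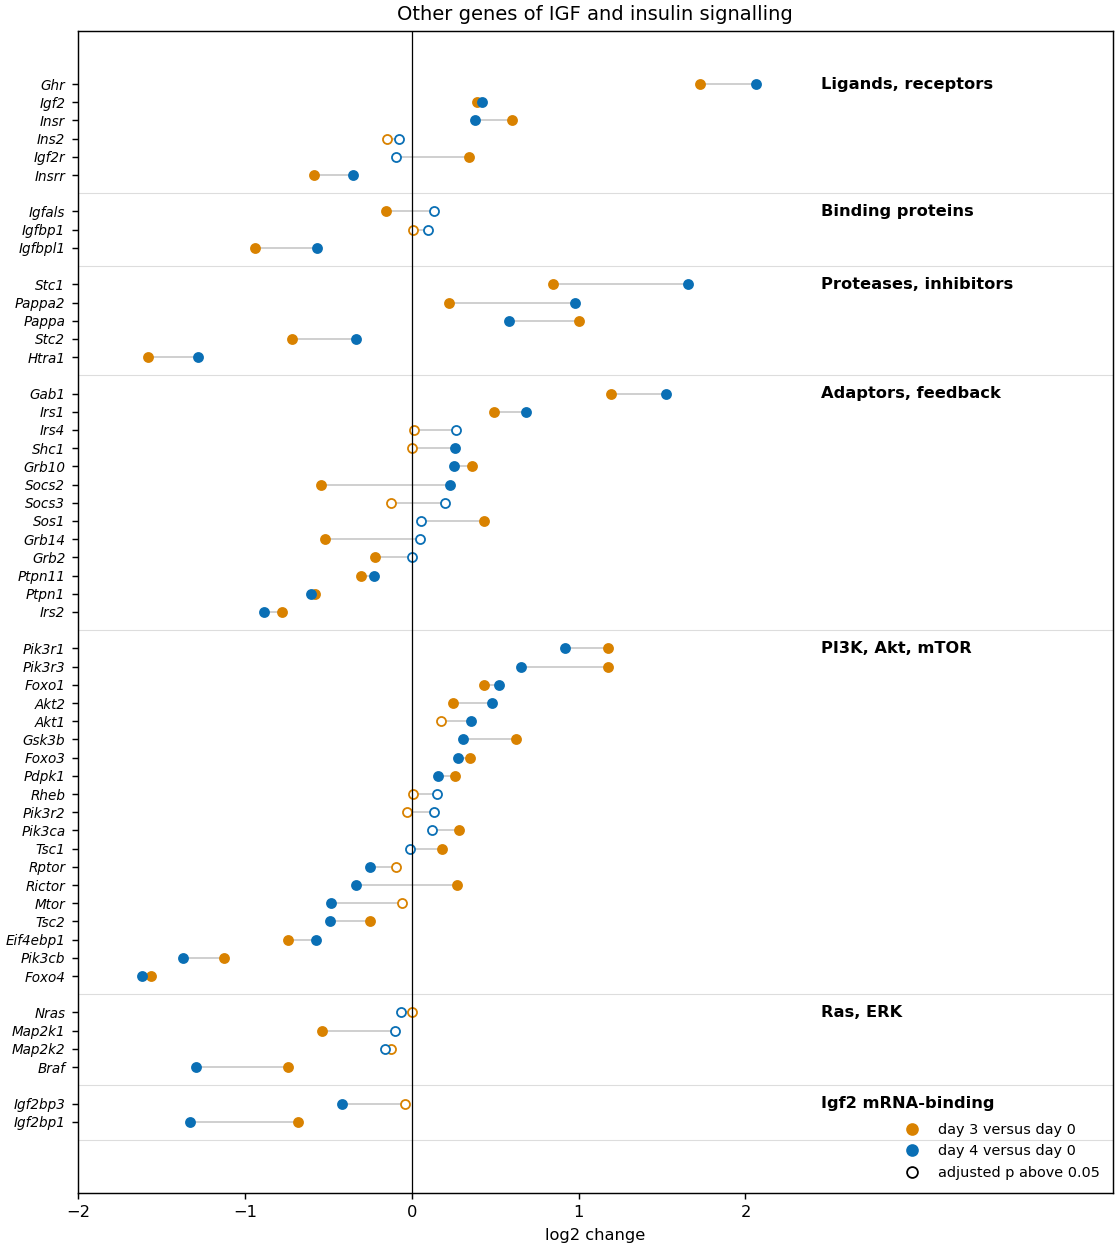
Log2 change against day 0 of 52 other genes of IGF and insulin signalling at day 3 (orange) and day 4 (blue), by group; open circles had an adjusted p above 0.05. Ghr, Gab1 and Stc1 lie farthest to the right at day 4, and Foxo4, Pik3cb and Igf2bp1 farthest to the left.

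Levels of cell type markers changed over the same days. The counts by list stand beside 23.8% of all genes higher and 28.1% lower at day 3 than at day 0. At day 4 these shares were 25.9% and 25.6%. The summed level of 10 fibroblast and mesenchyme markers was 11.77 to 11.86 at day 0, 12.61 to 12.67 at day 3 and 12.75 to 12.84 at day 4 (log2 of the summed intensities), with 6 of 10 higher and 2 lower at day 3 and 6 and 3 at day 4. Postn and Dcn, secreted matrix proteins of such cells, rose, whereas Lum stayed near 4.21 to 4.38 in daily means. Those lower on both days were Col1a1 (-0.42 at day 3 and -0.16 at day 4) and Thy1 (-1.25 and -0.83). Pdgfrb was lower at day 4 (-0.43). The sum of 5 mesothelium markers went from 11.19 to 11.24 at day 0 to 12.98 to 13.10 at day 3 and 13.21 to 13.24 at day 4, with 3 of 5 higher and 1 lower at day 3 and 4 higher at day 4. Wt1, Upk3b and Upk1b were higher on both days, Krt19 was lower at day 3 (-0.52) and higher at day 4 (0.25), and Msln had means of 5.56 to 5.76. The sums of both lists were higher on the same arrays as Igf1 and Igfbp3 to Igfbp7. The same held for the sums of the endothelial and visceral endoderm markers given below. The part of any of these cells in the members' changes was not tested.

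The other lists moved in several ways. Among all genes, 23.8% were higher and 28.1% lower at day 3 than at day 0, and 25.9% and 25.6% at day 4. From day 3 to day 4 the shares were 15.8% and 12.2%. The 8 endothelial markers summed to 12.42 to 12.48 at day 0, 12.97 to 13.08 at day 3 and 12.78 to 12.82 at day 4, with 6 higher and 1 lower at day 3 and 6 higher and 2 lower at day 4, where Kdr and Tek were lower. The 6 smooth muscle markers summed to 12.37 to 12.64, 12.37 to 12.43 and 12.66 to 12.83, with 2 higher and 4 lower at day 3 and 2 and 2 at day 4 against day 0, and 3 higher and 0 lower at day 4 against day 3. Tagln and Cnn1 were lower than at day 0 on both later days, and Acta2 and Actg2 were higher. Of 8 visceral endoderm markers, 2 were higher and 1 lower at day 3, and 3 higher and 1 lower at day 4, against day 0. Their sums were 9.47 to 9.64 at day 0, 9.86 to 10.20 at day 3 and 9.95 to 10.09 at day 4. Apob and Afp were below 6 in all daily means. The 7 neuron markers summed to 11.08 to 11.14, 10.39 to 10.42 and 10.92 to 11.03, with 1 higher and 3 lower at day 3 and 2 and 3 at day 4 against day 0. Stmn2, the brightest of them, had means of 10.63, 8.78 and 10.21 at days 0, 3 and 4. Dcx went the other way, with changes of 2.49 at day 3 and 1.99 at day 4 from day 0. The 8 ES cell markers fell from 12.56 to 12.60 at day 0 to 9.83 to 9.92 at day 3, and at day 4 were at 9.74 to 10.02. Against day 0, 0 were higher and 8 lower at day 3, and 0 and 7 at day 4. Igfbp2 was the member that was lower than at day 0 on both later days, as were the sums of the ES cell and the neuron markers. The part of these cells in the changes was not tested.

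**Figure D5:**
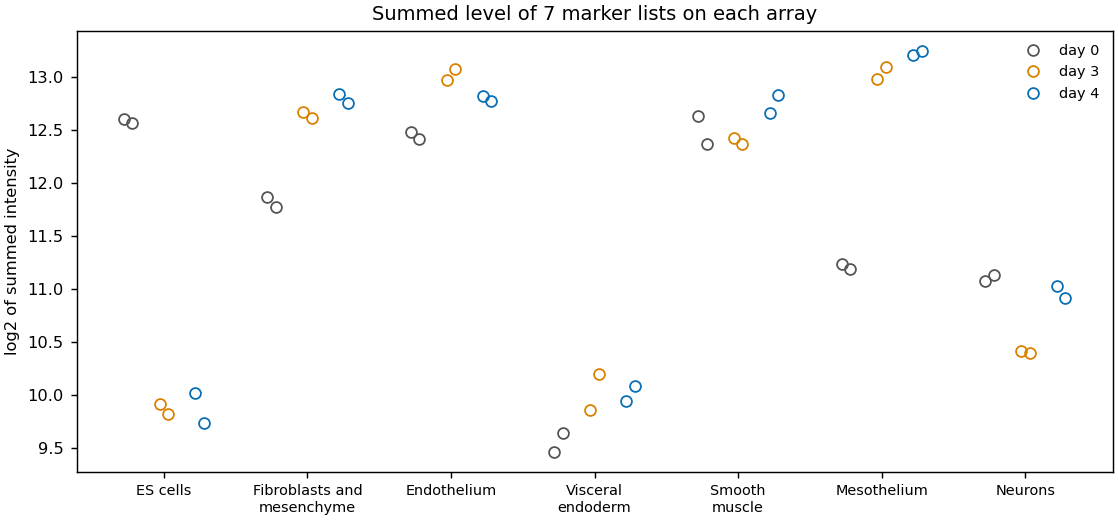
Log2 of the summed intensity of 7 marker lists on each array, by day; the 2 circles of a day are its arrays. ES cell markers drop after day 0. The sums of mesenchyme, mesothelium, endothelium and visceral endoderm markers are higher on all 4 later arrays than on both day 0 arrays.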

How the data were processed

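Total RNA of whole EBs was measured on 6 arrays, 2 per day, and grouped by the day in the sample titles and treatment labels. The authors deposited log2 intensities made by RMA (background correction, quantile normalization and summary per probe set) in Partek. No source used here gives the software version for the arrays. Because of the quantile step, changes are relative to the other transcripts of the array. Apart from that step, differences between dim signals are compressed.

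Of 35557 probe sets, 23410 were in the platform annotation, 21789 with 1 symbol and 1621 with several, and 12147 were unnamed here. No filter on level was applied. The brightest probe set was kept for the 999 genes with several, which left 19938 genes. Levels of different probe sets are not comparable.

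Tests were two-sided, by limma 3.58.1 in R 4.3.3 (lmFit, then eBayes with neither trend nor robust setting). The 6 arrays entered 1 fit with a mean per day (3 residual and 4.07 prior degrees of freedom). Benjamini-Hochberg adjustment covered all genes, with calls at 0.05 or below. The fit was tested on simulated data. Values are means or single arrays (n = 2 per day), and the number of arrays limits the precision. Genes called undetectable follow the study's limits, applied here over the 6 arrays. Promoter sequences, names and neighbours come from RefSeq (GRCm38.p6). Windows were searched in Python 3.11.15.

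The members and lists were chosen with earlier results of these data known. Named were all members, their 3 nearest genes by profile, neighbouring binding protein genes, and, per comparison, up to 10 signalling genes that passed with a 2-fold change and up to 3 that did not pass, in list order. Igf2, Pappa2, Stc2, Foxo1, Foxo3, Igf1os, single markers and the further values of Igf2r, Pappa, Stc1, Pik3r1 and Pik3r3 were added after their values were seen. The 14 alternatives comprised other scalings (median centring, cyclic loess), other probe set choices, a filter at a mean of 6, a robust trend, a fit of only the 2 days compared, a replicate block, and leaving out each array.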

Additional observations from a re-analysis of the deposited data

How the results depend on the processing

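Under 14 alternatives, 318 of 336 member results (a member in a comparison under an alternative) kept their direction and side of the threshold, 16 lost the call, 2 gained it and 0 reversed. The calls lost or gained concerned Igf1r against day 0 and Igf1, Igfbp2 and Igfbp3 between day 3 and day 4. Not all of these results were free to change. Each member has 1 probe set, so the other probe set choices left its log2 change as it was. Leaving out an array of the day not compared repeated the fit of only the 2 days compared. The share that stayed the same is therefore raised by repeats. Leaving out 1 array gave 7 to 8 members called at day 3 and at day 4 against day 0, and 4 to 6 between day 3 and day 4. The signalling genes called between day 3 and day 4 were 18 to 27 when an array was left out, against 29 with all 6.

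With the replicate number as a block, 8, 8 and 5 members were called. The member lost was Igf1 between day 3 and day 4 (adjusted p = 0.0518, limma). Across 19938 genes, the differences between replicates 1 and 2 correlated between days at 0.034 to 0.083. With only 2 arrays per day and no label of a shared batch, this cannot show whether arrays of the same number share a culture. For the sequenced RNA of day 0 and day 4, the study repeated the procedure to obtain biological replicates. It does not state this for the arrays.

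Median centring of the arrays raised the median log2 change of all genes from -0.00 to 0.11 at day 4 against day 0, and from 0.05 to 0.18 between day 3 and day 4. Calls among all genes then went from 5154 higher and 5106 lower to 7132 and 3915, and from 3156 and 2437 to 8829 and 1381. The signalling genes went from 19 higher and 17 lower to 26 and 15, and from 15 and 14 to 25 and 10. Between day 3 and day 4, the 5593 calls among all genes fell to 2728 without replicate 1 of day 3, 3650 without replicate 2 of day 3, and 3005 without replicate 2 of day 4. Why the calls fell without these arrays was not tested.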
